A study of Mus musculus with 2 samples.

Results

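The MHC class II chains of the mouse and their transactivator Ciita, 10 genes in all, were compared between cultures of myeloid-derived suppressor cells (MDSCs) with and without silencing of lnc-C/EBPβ, a long non-coding RNA. H2-Aa, H2-Ab1 and H2-Eb1 encode classical class II chains, H2-DMa, H2-DMb1 and H2-DMb2 the peptide editor DM, H2-Oa and H2-Ob its inhibitor DO, Cd74 the invariant chain and Ciita the transactivator of the family. Members were chosen by name, with earlier results of these arrays known, and comprised every probe set whose annotated symbols included 1 of the 10. This gave 22 of the 45037 probe sets of the array. Of the 10 genes, 9 were among the 18193 with a probe set of their own, and H2-DMb1 was read only together with H2-DMb2. The choice rests on the same contrast, so all differences are given as a description.

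Bone marrow cells of C57BL/6 mice received either a control siRNA or silncMDSC, the siRNA that the labels aim at lncMDSC (called lnc-C/EBPβ by the study), and spent 4 days in GM-CSF and IL-6 before total RNA was taken. Both cultures had the same cytokines, and the labels used here give no age of the mice. Each group was 1 Affymetrix array, so no difference has a replicate check and none was tested. The level of the targeted RNA itself was not analysed here. MDSCs are immature myeloid cells, and the myeloid gene S100a9, abundant in neutrophils, gave the brightest signal of both arrays, at intensities of 13983 in control and 13880 in silncMDSC. The medians of the arrays were 77.9 and 79.0, and the median log2 difference over 11921 genes was -0.002 with a robust SD of 0.18.

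MHC class II molecules are pairs of an alpha and a beta chain that carry peptides from endosomes to the cell surface for CD4 T cells. The invariant chain guides the new pair to the endosome and blocks its groove, DM exchanges the last piece of the invariant chain for a peptide, and DO holds DM back. Ciita does not bind DNA itself. It joins RFX, NF-Y and CREB proteins that sit on the X and Y boxes of class II promoters, and it largely sets how much of the classical chains a cell makes. Dendritic cells and B cells express the classical chains strongly, macrophages after interferon gamma, and neutrophils little.

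The Y box is the point by which the promoters can be laid side by side, and the stretches before it are shown because the genes share it. RefSeq promoter windows (GRCm38.p6, 250 bases before to 50 after each start) were at hand for 7 of the 10 genes, all on chromosome 17, with 8 windows since H2-DMa has 2 starts. H2-Ab1, Cd74 and Ciita had no entry. Each stretch is written 5′ to 3′ on the strand of its gene, with capitals for the Y box ATTGG and, where it lies 17 to 32 bases before the Y box, for the X-box-like letters AGNNACNGA.
H2-Eb1 (chr17:34305772-34305817, plus strand): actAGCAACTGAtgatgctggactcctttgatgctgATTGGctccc
H2-DMb1 (chr17:34153094-34153139, plus strand): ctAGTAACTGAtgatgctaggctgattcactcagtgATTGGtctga
H2-DMb2 (chr17:34145123-34145168, plus strand): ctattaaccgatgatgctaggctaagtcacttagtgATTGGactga
H2-Aa (chr17:34287862-34287907, minus strand): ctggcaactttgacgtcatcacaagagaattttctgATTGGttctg
H2-Oa (chr17:34092300-34092345, plus strand): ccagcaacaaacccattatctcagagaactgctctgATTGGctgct
H2-Ob (chr17:34238812-34238857, plus strand): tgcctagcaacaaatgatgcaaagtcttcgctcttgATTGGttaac

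In these 6 genes the Y box began between 43 and 90 bases before the RefSeq start. The remaining gene, H2-DMa, held ATTGG 198 bases before 1 of its starts and was not laid beside the others. On the strand of the gene ATTGG was present in 7 of the 8 windows and in 22.1% of all 32851 promoter windows, and on either strand in 7 of 8 and in 37.4%. The letters AGNNACNGA, on either strand, were found in 4 of the 8 windows, those of H2-Eb1, H2-DMb1, H2-Oa and H2-Ob, and in 17.7% of all. X-box-like letters followed on the same strand by the Y box at the spacing given were held by 2 windows, H2-Eb1 and H2-DMb1, and by 0.192% of all windows. The stretches of H2-Oa, H2-Ob and H2-DMb2 miss these letters there by 1 base, so the count depends on the exact letters chosen. H2-DMb1 and H2-DMb2 had 40 of 46 bases in common, which was the closest pair. The next pair, H2-Oa and H2-Aa, shared 25. TTCNNNGAA, the GAS element of interferon-activated STAT factors, was found in 1 of the 8 windows, that of H2-DMb2, and in 8.30% of all. A match describes the letters of a window and is not a binding site.

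Every probe set of the 10 member genes was higher on the silncMDSC array, 22 of 22. This does not hold for all class II probe sets, since those of H2-Ea, no member, went either way. To be counted, a probe set or gene needed at least 78.4 on the brighter array, a floor set at the median over both arrays. That left 21 of the 22, of which 19 were above it on both arrays and 2, both of Ciita, only on the silncMDSC array. Differences are log2(intensity + 1) of silncMDSC minus control, and folds are on that scale, which understates those of dim probe sets a little. Each gene was read from its brightest probe set above the floor that carried its symbol alone. For H2-DMb1 only probe sets shared with H2-DMb2 exist, so its value belongs to both. Of the 10 genes, 5 were past 1.5-fold upwards, namely H2-Ob, H2-Oa, H2-Eb1, Ciita and H2-DMb2, and 0 downwards. Which genes these were depends on the probe set read. With the mean of a gene's probe sets, Ciita (0.39) and H2-DMb2 (0.54) were under 1.5-fold, and H2-Aa (0.62) and H2-Ab1 (0.68) were past it. Among all genes above the floor 0.948% were past 1.5-fold upwards, 1.42% downwards, and 49.3% were higher by any amount. The median difference was 0.52 over the 10 genes, from 0.26 to 1.0. By probe set, 10 of 21 were at least 1.5-fold higher, against 0.776% of all 23193 above the floor. The contrast is the one the members were chosen with, so these shares are set side by side only. In bulk RNA, more cells of a type and more RNA per cell cannot be told apart.

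**Figure D1:**
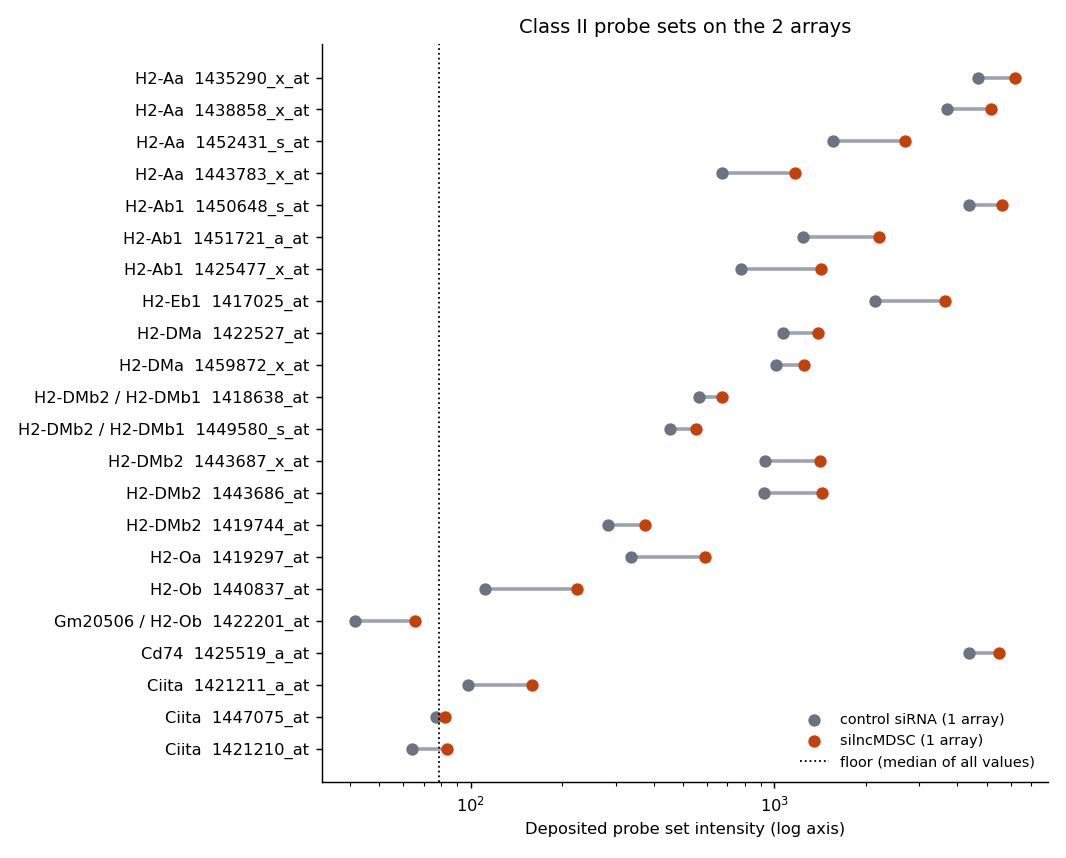
Deposited intensity (x axis, log scale) of each of the 22 class II probe sets on the control siRNA array (grey) and the silncMDSC array (orange), with the floor of 78.4 as a dotted line. The orange point lies to the right of the grey one in all 22 pairs, and only 1422201_at, shared by H2-Ob and Gm20506, stays below the floor on both arrays.

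H2-Aa, the alpha chain of the I-A molecule, was read by 4 probe sets. On its brightest, 1435290_x_at, control read 4661 and silncMDSC 6210, a difference of 0.41. Probe set 1438858_x_at had 3684 and 5175 (0.49). The others were farther apart, with 1563 and 2687 on 1452431_s_at (0.78) and 673 and 1167 on 1443783_x_at (0.79). All 4 identifiers end in _x_at or _s_at, the mark of probes that can also bind other transcripts. H2-Ab1, which encodes the beta chain that pairs with it, showed the same split. Its brightest probe set 1450648_s_at had 4379 in control and 5618 in silncMDSC (0.36). On 1451721_a_at the values were 1245 and 2200 (0.82), and on 1425477_x_at 777 and 1423 (0.87), which is the largest difference among the probe sets of the I-A chains. Between the probe sets of a single gene the difference therefore ranged over 0.38 for H2-Aa and 0.51 for H2-Ab1, and the smaller value was in both cases that of the brightest probe set, the one by which the gene was counted.

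H2-Eb1, the beta chain of the I-E molecule, had 2150 in control and 3628 in silncMDSC on its only probe set, 1.69-fold higher (0.75). It ranked 49 from the top among the 11921 genes. I-E is not formed in C57BL/6 mice, in which the alpha chain gene H2-Ea is defective, and RefSeq lists that gene as a transcribed pseudogene. H2-Ea is no member, and its probe set above the floor had 444 and 518 (0.22). Its other probe sets were lower in silncMDSC, with 55.2 and 47.0 (-0.23) and with 4.63 and 3.0 (-0.49). They did not reach the floor on either array. The H2-Eb1 message was thus higher in silncMDSC in a strain that has no I-E partner for it, while the neighbouring class II gene H2-Eb2 had 117 and 124 (0.09).

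The DM genes ranged from 1.19-fold to 1.55-fold higher. H2-DMa, the alpha chain of DM, had 1063 in control and 1391 in silncMDSC on 1422527_at (0.39) and 1015 and 1248 on 1459872_x_at (0.30). The beta chain of DM exists as 2 neighbouring genes in the mouse. H2-DMb2 had 926 and 1438 on 1443686_at (0.63) and 932 and 1410 on 1443687_x_at (0.60), both more than 1.5-fold higher, but 284 and 374 on 1419744_at (0.40). The 2 probe sets that the annotation gives to both H2-DMb1 and H2-DMb2 were the least apart of the DM chains, with 563 and 672 on 1418638_at (0.26) and 453 and 551 on 1449580_s_at (0.28). Probe sets annotated to H2-DMb2 alone were thus farther apart than those that read both genes, and no value for H2-DMb1 alone can be given.

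The DO chains were among the genes farthest above control. H2-Oa, the alpha chain of DO, had 338 in control and 589 in silncMDSC, 1.74-fold higher (0.80, rank 41 of 11921). H2-Ob, its beta chain, had 111 and 224 on 1440837_at, 2.0-fold higher (1.0, rank 20), and was the only member at least 2-fold higher, as were 0.168% of all genes above the floor. It lay at that limit, and was under it with a pseudocount of 16 (0.91) and with the loess trend on level removed (0.99). Its other probe set, 1422201_at, is also annotated to the long non-coding RNA Gm20506 that RefSeq places next to it, and had 41.5 and 65.4 (0.65), below the floor on both arrays.

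The invariant chain Cd74 was read by 1 probe set, with 4360 in control and 5502 in silncMDSC, 1.26-fold higher (0.34). Ciita was dim on both arrays. Its brightest probe set 1421211_a_at had 97.6 in control and 159 in silncMDSC, 1.62-fold higher (0.70, rank 64). On 1421210_at the values were 63.9 and 83.6 (0.38) and on 1447075_at 77.1 and 82.2 (0.09), both below the floor in control. The 3 probe sets were all on the same side, but the size for the transactivator rests on 1421211_a_at.

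Of the 432 probe sets with a mean intensity of at least 4000, 4 were class II probe sets, namely 1425519_a_at of Cd74, 1435290_x_at and 1438858_x_at of H2-Aa and 1450648_s_at of H2-Ab1. Cd74 was the lowest of these 4, and no other of the 432 was as far above control as Cd74. Of the 432, 1 was at least 1.5-fold apart in either direction, and it was no class II probe set. Both the limit of 4000 and the comparison with Cd74 were chosen after the values were seen, on the contrast by which the family was picked. The differences of the array narrow towards the top of its scale, as the plot of difference against level shows, and whether this compressed the bright class II probe sets was not tested.

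**Figure D2:**
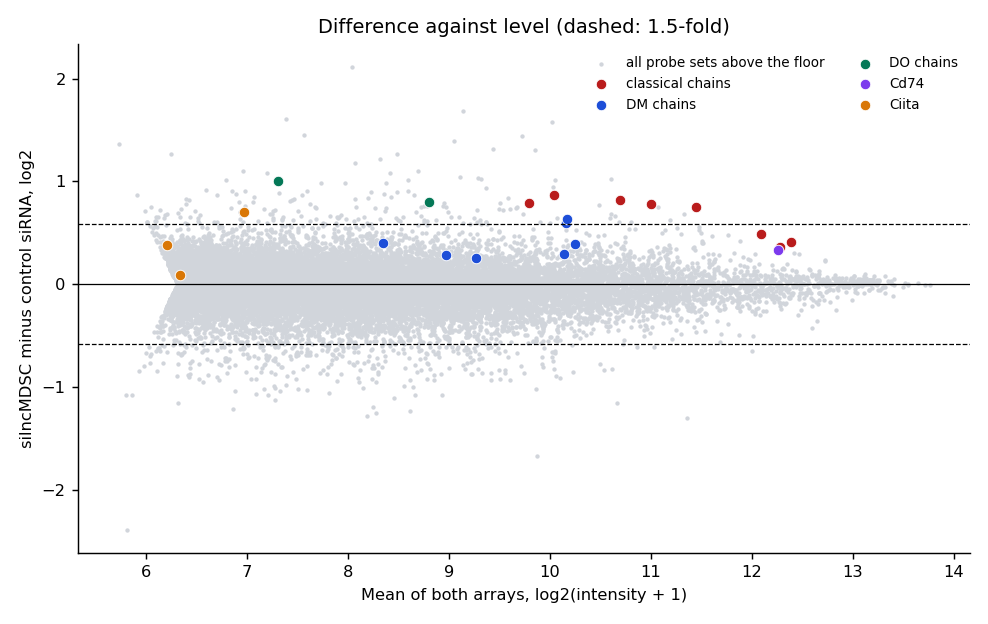
Each grey point is 1 of the 23193 probe sets above the floor, placed by its mean level on the 2 arrays (x axis, log2(intensity + 1)) and by its difference, silncMDSC minus control siRNA (y axis, log2), and coloured points are the 21 class II probe sets above the floor by role. All 21 lie above 0, from 0.09 for Ciita to 1.0 for H2-Ob, and the 4 brightest lie above the narrow band of grey points around them.

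Apart from Cd74 and Ciita, the members lie together in the class II region of chromosome 17, with genes of class I peptide loading between them. In RefSeq order the region runs from H2-Oa to H2-Eb1, and with 5 genes on either side it held 24 genes, 8 of them members. The other genes with a value numbered 9, and 0 of them were at least 1.5-fold higher or lower. They include the class II genes H2-Eb2 (0.09) and H2-Ea (0.22). All but Brd2 were above 0, against 49.3% of all genes above the floor. Psmb9, a catalytic subunit of the immunoproteasome, had 1324 in control and 1614 in silncMDSC (0.29), and the peptide transporter genes Tap1 and Tap2 differed by 0.13 and 0.26. Psmb8, another immunoproteasome subunit, differed by 0.09 and Brd2, which encodes a reader of acetylated histones and lies between H2-Oa and H2-DMa, by -0.001. The median was 0.16 over these 9 genes and 0.52 over the 8 members in the region. The lowest member, H2-DMb1 read with H2-DMb2, was at 0.26 and so below Psmb9 and level with Tap2, which means that the ranges of members and neighbours overlap at that end.

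**Figure D3:**
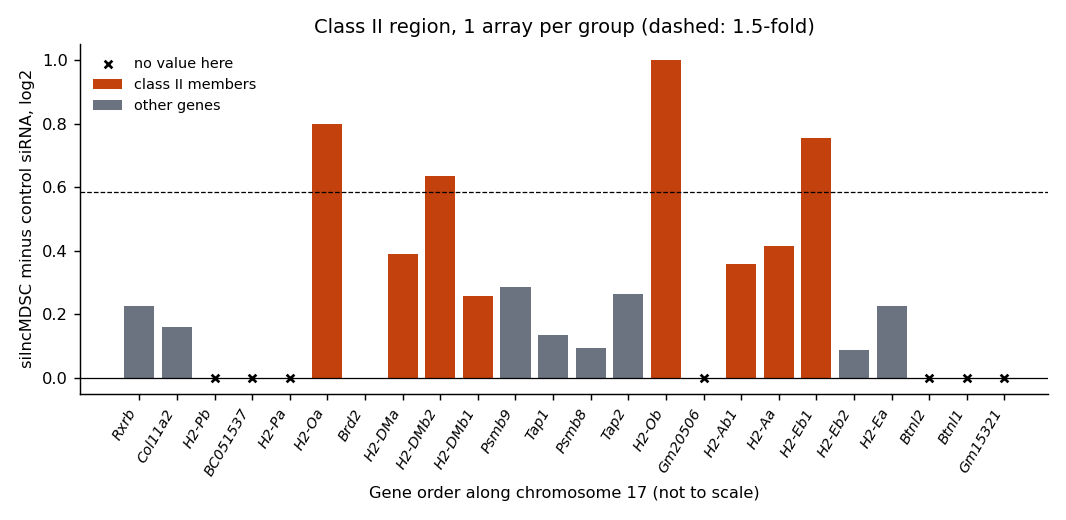
Bars give the silncMDSC minus control siRNA difference (y axis, log2, 1 array per group) of each gene in its order along chromosome 17 (x axis, not to scale), with members in orange, other genes in grey, and crosses for genes with no value here. The members reach from 0.26 for H2-DMb1, read from a probe set shared with H2-DMb2, to 1.0 for H2-Ob, and the other genes from -0.001 for Brd2 to 0.29 for Psmb9.

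The MHC class I genes and their loading machinery, which show peptides of the cytosol to CD8 T cells, were close to level. Among all genes above the floor 0.948% were past 1.5-fold upwards and 1.42% downwards. Of 17 class I genes above the floor, 0 were past it in either direction, which is near that share. Their median was -0.05, compared with 0.52 for class II. Those farthest from 0 were Psmb9, Nlrc5, the class I counterpart of Ciita (-0.28), Tap2 and Erap1, a peptide trimming enzyme (-0.19, with -0.61 on its other probe set). The heavy chains H2-K1 (-0.03) and H2-D1 (-0.05) and the light chain B2m (-0.01) were level. All lie towards the top of the scale, where differences narrow, with H2-K1 at 6534 and 6407, H2-D1 at 6110 and 5921, and B2m at 8574 and 8523.

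Genes for proteins that bind class II promoters numbered 7. Of these, 0 were at least 1.5-fold apart, with a median of 0.03. Rfxank, a subunit of RFX, was the farthest up with 142 in control and 208 in silncMDSC (0.55), although its other probe set differed by -0.16. Rfx5, the DNA-binding subunit, differed by 0.27, Nfyc, a subunit of NF-Y, by -0.23 and Nfyb by -0.08. The regulators of Ciita were likewise within 1.5-fold, 12 of 12, with a median of 0.06. Among all genes above the floor only 0.948% were past 1.5-fold upwards and 1.42% downwards, so the counts of both lists are near that share. Socs1, a brake on cytokine receptors, had 199 and 139 (-0.52). Irf4, a factor of dendritic cells and B cells, had 292 and 402 (0.46). Ifngr1, a chain of the interferon gamma receptor, differed by 0.34, and its kinase Jak2 by 0.28.

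Interferon gamma is the best known inducer of Ciita, and the genes that it induces had a median of -0.18 here. Of 15 above the floor, 0 were past 1.5-fold upwards and 2 downwards, against 0.948% and 1.42% of all genes above the floor. The list shares Tap1, Psmb8, Psmb9 and Nlrc5 with the class I genes. The chemokine Cxcl10 had 114 in control and 64.5 in silncMDSC (-0.82, below the floor in the latter). Iigp1, a GTPase that acts on pathogen vacuoles, had 149 and 84.5 (-0.81), followed by Socs1 and by the related GTPase Igtp (-0.36). Beside them, Irf1 was at 0.15 and Gbp2 at 0.24. The part of interferon gamma in the class II differences was not tested.

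Proteases and other proteins that prepare endosomal peptides for class II had a median of -0.11. Of 11, 0 were past 1.5-fold upwards and 1 downwards. That 1 was Lgmn, an asparagine-specific protease, with 912 in control and 571 in silncMDSC (-0.67). Cathepsin L (Ctsl) differed by -0.30 and cathepsin B (Ctsb) by -0.25, with other Ctsb probe sets from -0.81 to -0.17. Ifi30, a thiol reductase that unfolds antigens, had 2542 and 3351 (0.40). Cathepsin S (Ctss), which removes the invariant chain, had 7711 and 7071 (-0.12). Of the genes that govern class II turnover by ubiquitin, Marchf1, the ligase that marks class II for degradation, had 545 and 457 (-0.25), Marchf8 differed by -0.24, and Cd83, which protects class II from Marchf1, had 199 and 285 (0.52). The median of these 3 was -0.24, with 0 at least 1.5-fold apart. Mif, a cytokine that binds Cd74, differed by 0.20, with -0.23 on its other probe set, and Cd44, which signals with Cd74, by -0.13. Costimulatory molecules that act beside class II on the T cell were within 1.5-fold, 6 of 6. Few of all genes above the floor were past it (0.948% upwards, 1.42% downwards). The median of the 6 was 0.10. The farthest were Pdcd1lg2 (0.27), Cd86 (0.22), Icosl (0.14) and Cd274 (-0.12). Cd80 was at 0.05 on its brightest probe set, but at -0.43 and -0.36 on its others.

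Markers of dendritic cells lay mostly on the same side as class II, 12 of 13 above the floor. Of the 13, 5 were past 1.5-fold upwards and 0 downwards, and their median was 0.50. Among all genes above the floor 49.3% were higher by any amount, 0.948% were past 1.5-fold upwards and 1.42% downwards. Their summed intensity was 4514 in control and 6650 in silncMDSC. The 5 were the chemokine Ccl17 (0.67), the integrin Itgax (0.66), the homing receptor Ccr7 (0.64), Batf3, a factor of cross-presenting dendritic cells (0.62), and the actin bundler Fscn1 (0.60, with 0.15 and 0.25 on its other probe sets). Zbtb46, a factor of the conventional dendritic cell lineage, differed by 0.14 and Flt3, the receptor that these cells depend on, by 0.34, whereas Cd209a was at -0.11. Xcr1 (-0.35) and Siglech (-0.17) were lower in silncMDSC and did not reach the floor on either array. With no floor the median of the dendritic cell markers was 0.46. The part of dendritic cells in the class II differences was not tested.

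Markers of other cell types lay on either side of 0. Since 0.948% of all genes above the floor were past 1.5-fold upwards and 1.42% downwards, a count of 0 in a list is near that share. Of 10 B cell markers above the floor 0 were at least 1.5-fold apart, with a median of -0.05 and summed intensities of 1917 in control and 1910 in silncMDSC. Igll1 (0.36), Blnk (-0.23), Cr2 (-0.22) and Ms4a1 (-0.17) were the farthest, and Pax5, which defines the lineage, was below the floor on both arrays. Of 11 macrophage markers 5 were past 1.5-fold downwards and 0 upwards, with a median of -0.25 and sums of 18857 and 16147. The 5 were Mrc1 (-0.93), Msr1 (-0.91, with -0.88 to -0.40 on its other probe sets), Apoe (-0.88), Maf (-0.85, with -0.71 to -0.41 on its other probe sets) and Mertk (-0.69). Of 6 eosinophil markers, 4 were above the floor, with a median of 0.46, 0 of them at least 1.5-fold apart, and sums of 3084 and 4313 (Prg2 0.55, Siglecf 0.48, Epx 0.43, Prg3 0.18). The receptors Ccr3 (-0.04) and Il5ra (-0.12) did not reach the floor on either array, and with no floor the median was 0.31. Of 9 monocyte markers 1, Vcan (-1.01), was past 1.5-fold downwards and 0 upwards, with a median of -0.01 and sums of 13818 and 14086, and Crip1 (0.53), Ms4a6c (-0.50, with -0.13 on its other probe set) and Cx3cr1 (0.37, below the floor in control) came next. Of 12 neutrophil markers 0 were at least 1.5-fold apart, with a median of -0.08 and sums of 75007 and 72376 (Cxcr2 0.44, Mpo -0.27, Mmp9 -0.19, Ltf -0.19). Many of them are bright, such as S100a8 (13474 and 13399), Ngp (11661 and 11767) and Lcn2 (7739 and 7586), and such genes dominate the sums. Only 1 of the 432 probe sets with a mean of at least 4000 was 1.5-fold apart, so the count and sums of this list could show little. Of 6 T and NK cell markers Klrd1 (0.91) was the only one at least 1.5-fold apart, and the median was 0.09 with sums of 1850 and 1932 (Il7r -0.31, Cd3d 0.19 but below the floor in control, Cd3e 0.12). The part of any of these cell types in the class II differences was not tested.

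**Figure D4:**
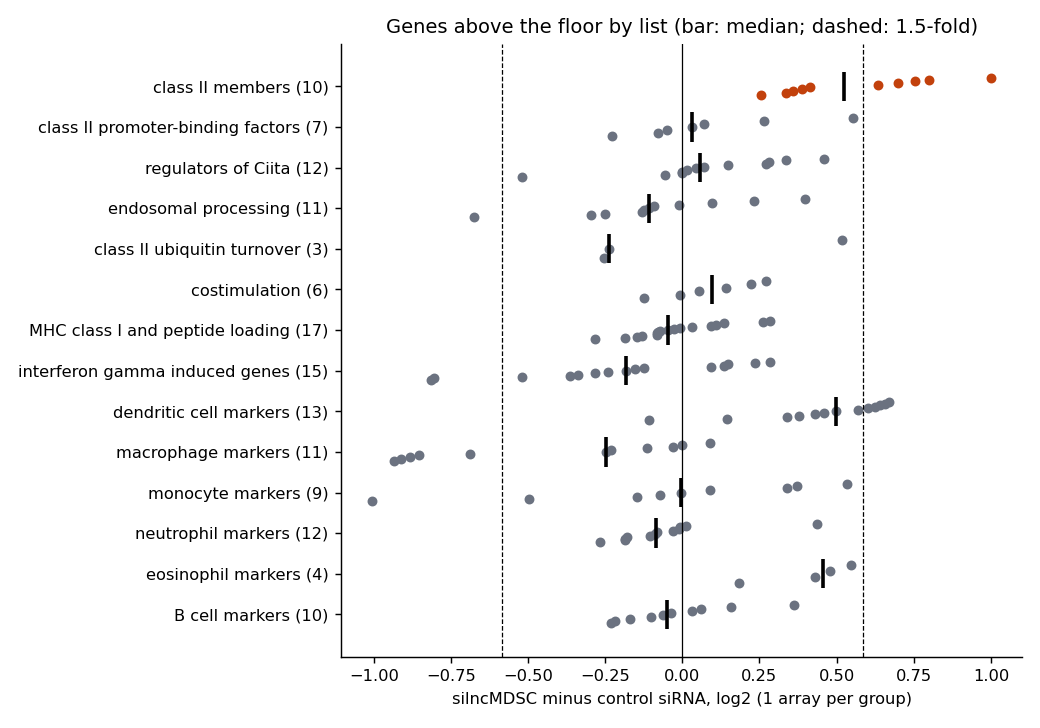
Each point is 1 gene above the floor, placed by its difference, silncMDSC minus control siRNA (x axis, log2, with 1 array in each group), by list (y axis, number of genes in brackets), with a black bar at the list's median and dashed lines at 1.5-fold. All 10 class II members (orange) lie above 0 with a median of 0.52, as do 12 of 13 dendritic cell markers with a median of 0.50, while class I genes centre on -0.05 and genes induced by interferon gamma on -0.18. Over all genes above the floor 49.3% lie above 0.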

How the data were processed

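Total RNA of each culture (6 µg for labelling, per the labels) was hybridised to 1 Affymetrix mouse array. The probe set intensities deposited by the authors are on a linear scale with a lowest value of 1. RMA is named in the submitters' processing notes, without a version. It usually gives log2 values, and no source used here says how the linear values arose. The methods name limma, but with 1 array per group no test can be run, and the number of arrays limits the precision. Differences were computed as log2(intensity + 1), silncMDSC minus control siRNA, leaving out 64 control probe sets of the manufacturer, with Python 3.11.15, pandas 2.3.3 and statsmodels 0.14.6. The calculation was tested on simulated data. Symbols came from the platform annotation. Entrez identifiers matched 34741 of the 34945 single-symbol probe sets to a RefSeq table (GRCm38.p6), which also gave the gene order.

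The class II members, 16 further gene lists and the motifs were chosen with earlier results of these arrays known. Named in the text are every member probe set and, in each further list, up to 4 genes with the largest differences plus any at least 1.5-fold apart. Other genes were named for their role, after their values were seen. A list gene was read from its brightest probe set above the floor with that symbol alone. Alternatives were another scaling (centring, a loess trend with span 0.3, quantiles), a pseudocount of 16, other floors, the mean of a gene's probe sets, leaving out shared or cross-hybridising probe sets, and other fold thresholds.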

Additional observations from a re-analysis of the deposited data

How the results depend on the processing

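Centring, removal of a loess trend, quantile normalization and a pseudocount of 16 recompute the value of a probe set. Under these 4 the 21 class II probe sets above the floor stayed above 0, 84 of 84 values, and on their side of 1.5-fold. All 4 rescale the same pair of arrays, so the 84 values are no replicate check and only show that scaling matters little. The median over the members was 0.52 and ran from 0.41 to 0.70. It was 0.41 with the floor at the 75th percentile, which leaves out Ciita, and 0.63 without probe sets of several symbols, which leaves out H2-DMb1. It was 0.70 without _x_at and _s_at probe sets, which leaves out H2-Aa and reads H2-Ab1 from 1451721_a_at (0.82), past 1.5-fold. The count of members at least 1.5-fold higher was 5. With a 2-fold threshold 1 member passed, and with a 1.2-fold threshold 9 did. Otherwise it was from 4 to 6. It was 6 of the 9 members read without _x_at and _s_at probe sets. Under the mean and the dimmest probe set it stayed at 5, with other genes in it. With the mean of all probe sets, and with the dimmest above the floor, a choice made after seeing the data, Ciita (0.39 and 0.38) and H2-DMb2 (0.54 and 0.40) dropped under 1.5-fold, and H2-Aa (0.62 and 0.79) and H2-Ab1 (0.68 and 0.87) passed it. The class I median ran from -0.05 to -0.02. The medians of the promoter-binding factors, the Cd74 partners, B cells and monocytes lie near 0 and took either sign. With no floor the eosinophil median was 0.31, the only list median that moved by over 0.1. No paired analysis was possible because each group is 1 array. The signal of Ciita is close to the floor.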
